A study of Mus musculus with 25 samples.

Results

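The 10 canonical genes of the unfolded protein response listed here were followed in gonadal white adipose tissue of mice fed a low-fat or a high-fat diet: Hspa5, Hsp90b1, Dnajb9, Sdf2l1, Edem1, Herpud1, Xbp1, Atf4, Ddit3 and Trib3. They were chosen by gene symbol, with earlier results of these data known, and all 10 were measured among 22180 genes. Each gene is represented by the transcript cluster with the highest mean, a transcript cluster being the set of probes summarised for 1 transcript region. Expression was measured with Affymetrix Mouse Gene 2.0 ST arrays, 1 array per mouse, in 25 male mice. All mice, the chow and low-fat controls included, were heterozygous apoE3L.CETP mice, which carry the ApoE3Leiden and human CETP transgenes and have a lipoprotein metabolism closer to the human one. The baseline group ate chow and was 12 weeks old (2 arrays). From that age the other mice received a low-fat diet (LFD; 20% protein, 70% carbohydrate, 10% fat) or a high-fat diet (HFD; 60% fat, 20% carbohydrate, 20% protein, with cholesterol at 0.25%). The LFD groups held 4 arrays each at 4, 8 and 12 weeks, and the HFD groups held 3, 4 and 4. The labels give ages of 16, 20 and 34 weeks for these times, so the groups are named here by weeks on diet. Levels are log2 array values, differences are HFD minus LFD on the log2 scale ± standard error, and a gene was called where limma's Benjamini-Hochberg adjusted p over all 22180 genes was under 0.05.

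The unfolded protein response adjusts the folding capacity of the endoplasmic reticulum to the load of secreted and membrane proteins. Unfolded proteins in the lumen activate the sensors IRE1, PERK and ATF6. IRE1 splices Xbp1 mRNA into the form that encodes an active transcription factor, PERK reduces general translation while favouring that of ATF4, and ATF6 is cut in the Golgi to release a transcription factor. Their targets are chaperones, components of endoplasmic reticulum-associated degradation (ERAD, which returns misfolded proteins to the cytosol for the proteasome) and, under lasting stress, regulators such as CHOP, the product of Ddit3. Adipose tissue contains adipocytes and secretory immune cells that use this pathway, and bulk arrays do not separate them. In such samples more cells of a type and more RNA per cell cannot be told apart. The arrays measured total Xbp1 transcript and not its splicing, and no protein.

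Some members hold motifs of known response elements close to their start, and the sequences of 4 of them are shown: those in which an element was found and that of Edem1, the member that differed between the diets. The 250 bases before the transcription start were read from RefSeq's promoter table (GRCm38.p6) for all 10 members, 1 start each. Motifs were searched on both strands as follows: the ER stress response element ERSE (CCAAT, any 9 bases, CCACG), ERSE-II (ATTGG, any 1 base, CCACG), the core of the unfolded protein response element (TGACGTGG) and a C/EBP-ATF response element (TGATGCAA). Matches are in capitals, each sequence runs 5′ to 3′ along its gene, and the base beside the start is the last.
Hspa5: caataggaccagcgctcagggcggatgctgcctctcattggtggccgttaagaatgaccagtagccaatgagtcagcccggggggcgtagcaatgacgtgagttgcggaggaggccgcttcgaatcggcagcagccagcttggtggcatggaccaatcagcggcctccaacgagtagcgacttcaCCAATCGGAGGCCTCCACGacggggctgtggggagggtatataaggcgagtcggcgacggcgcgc
Hsp90b1: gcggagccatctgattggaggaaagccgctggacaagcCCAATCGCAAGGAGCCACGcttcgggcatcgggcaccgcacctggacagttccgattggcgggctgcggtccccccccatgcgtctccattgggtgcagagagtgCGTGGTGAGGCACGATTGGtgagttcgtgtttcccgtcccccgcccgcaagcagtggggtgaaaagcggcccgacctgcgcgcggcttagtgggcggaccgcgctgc
Herpud1: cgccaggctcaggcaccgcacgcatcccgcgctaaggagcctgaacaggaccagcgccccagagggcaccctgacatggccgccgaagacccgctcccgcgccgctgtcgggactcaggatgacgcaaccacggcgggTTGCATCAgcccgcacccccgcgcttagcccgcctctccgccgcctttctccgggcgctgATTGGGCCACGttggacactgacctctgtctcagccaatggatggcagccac
Edem1: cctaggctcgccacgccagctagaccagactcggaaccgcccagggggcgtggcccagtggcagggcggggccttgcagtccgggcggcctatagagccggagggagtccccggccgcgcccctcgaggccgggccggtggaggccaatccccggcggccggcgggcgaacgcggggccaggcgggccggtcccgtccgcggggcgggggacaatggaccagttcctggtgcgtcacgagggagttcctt
The Hspa5 window is chr2:34771840-34772089 on the plus strand, that of Hsp90b1 is chr10:86705445-86705694 on the minus strand, that of Herpud1 is chr8:94386179-94386428 on the plus strand and that of Edem1 is chr6:108828391-108828640 on the plus strand. ERSE occurred in 37 of 32851 windows of the same length (0.113%). Hspa5 held 1 match, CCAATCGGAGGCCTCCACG, from 65 to 47 bases before the start. Hsp90b1 held 2, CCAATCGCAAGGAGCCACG from 212 to 194 bases before the start and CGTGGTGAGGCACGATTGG, a match on the opposite strand, from 107 to 89 bases before it. ERSE-II occurred in 10 windows (0.0304%), among them that of Herpud1, where ATTGGGCCACG lay from 52 to 42 bases before the start. The C/EBP-ATF element occurred in 260 windows (0.791%), and Herpud1 held it on the opposite strand as TTGCATCA from 112 to 105 bases before the start. TGACGTGG occurred in 185 windows (0.563%) and in none of the 10. Edem1 and the other 6 members held no match to these letters within this window, which says nothing of elements elsewhere or of other spellings. The Edem1 start used lies inside the RefSeq span of the gene.

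Transcripts of other tissues were present in some of the arrays. Array medians lay between 5.04 and 5.36, and Pearson correlations of array pairs over the genes ran from 0.909 to 0.992. All 25 arrays had adipocyte transcripts at high levels (Adipoq 10.62 to 11.80, Plin1 10.43 to 12.32). The mean of 12 measured adipocyte genes was 11.92 to 12.13 in LFD and 11.77 to 11.88 in HFD at 8 weeks. It was 11.61 to 12.01 and 11.82 to 11.98 at 4 weeks, and 11.78 to 12.01 and 11.62 to 11.84 at 12 weeks. Its part in the differences of the members and pathway genes was not tested. In 11 arrays the mean of 26 measured hepatocyte genes was 8.87 to 10.62, against 5.16 to 7.25 in the other 14. Of the 11, 2 were LFD and 3 HFD arrays at 8 weeks, and 3 were LFD and 3 HFD arrays at 12 weeks. These arrays also had Xist at 5.03 to 6.76, against 3.36 to 3.92 in the others, although all mice are labelled male. The 11 arrays thus hold transcripts of another tissue than the labelled one. Whether Xist came with those transcripts or from the labelled mice was not tested. A mean of 14 measured epididymis genes stood at 11.88 in chow array 1, 10.18 in HFD array 1 at 4 weeks and 5.5 in LFD array 1 at 4 weeks, and at most 4.23 elsewhere. Values without these arrays are given beside the Edem1, Herpud1 and pathway results below and in the closing section.

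Of the 10 genes, 1 was called between the diets at each time, and it was Edem1, higher in HFD. Of all genes, 0.212% were called in either direction at 4 weeks, 2.4% at 8, 4.46% at 12 and 10.5% for the average over the 3 times, in which Edem1 was again the 1 member called. The share called higher in HFD was 0.189%, 1.17%, 3.13% and 6.03% in that order. Most members had positive differences: 7 of 10 at 4 weeks, 6 at 8 weeks, 7 at 12 weeks and 8 on average, where 49.7%, 48.2%, 48% and 46.8% of all genes did. The median difference of the members was 0.24, 0.13 and 0.13 at the 3 times and 0.12 on average, and that of all genes was -0.00, -0.01, -0.01 and -0.01. At 8 weeks 3 members (Hspa5, Sdf2l1 and Edem1) had every HFD array above every LFD array, as did 5.01% of genes. At 4 and 12 weeks this held for 1 member, Edem1, and for 4.68% and 7.52% of genes.

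**Figure D1:**
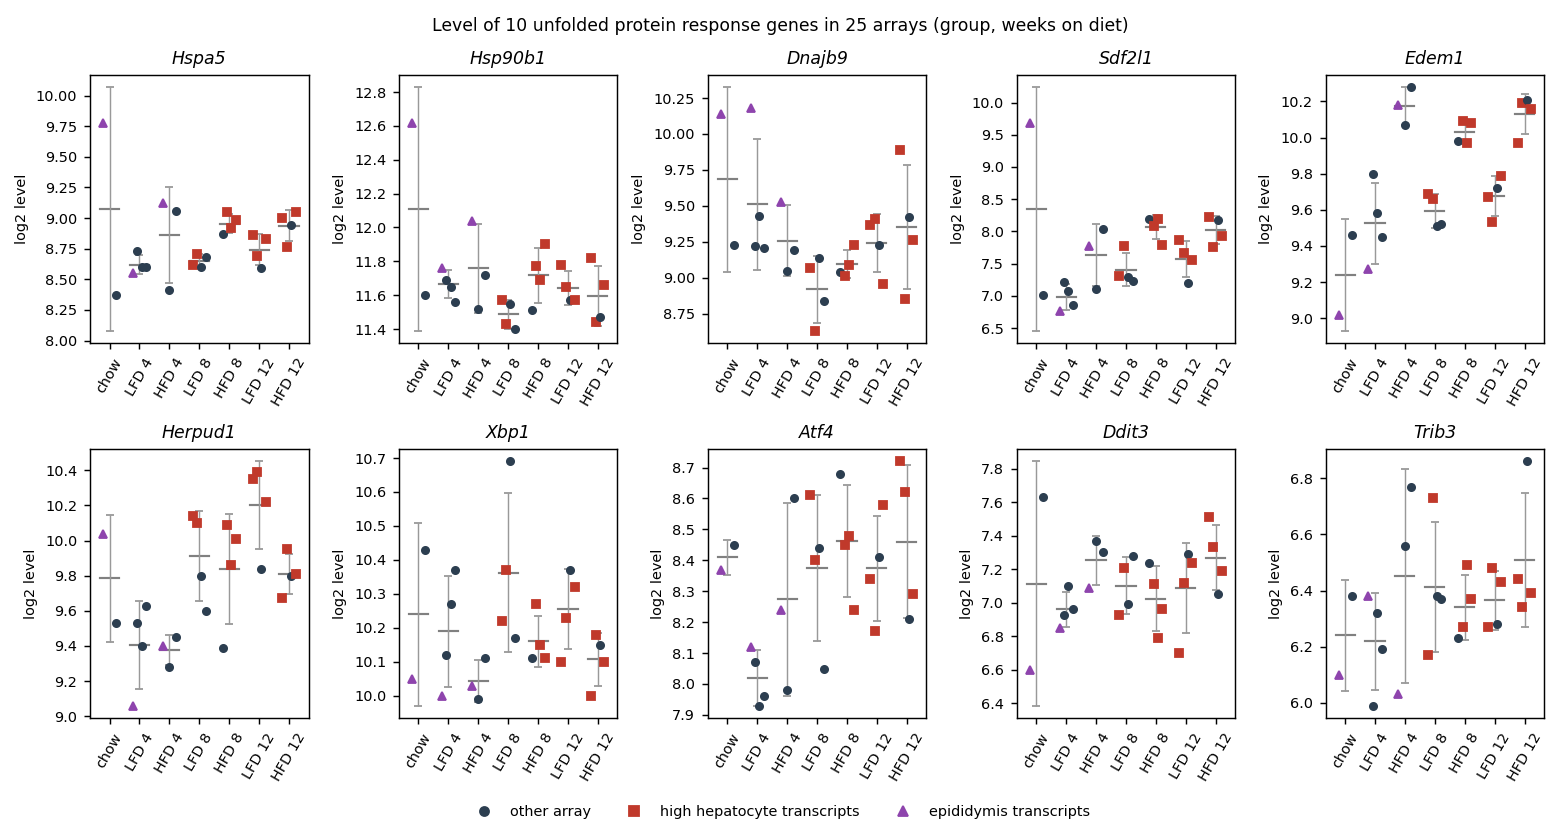
Log2 level (y axis) of the 10 genes in each array (points) by group and weeks on diet (x axis), with the group mean (short line) and SD (bars); squares are the 11 arrays with high hepatocyte transcripts and triangles the 3 with epididymis transcripts. For Edem1 all HFD arrays (9.97 to 10.28) lie above all LFD arrays (9.27 to 9.80), and for Hspa5, Hsp90b1 and Sdf2l1 chow array 1 lies above all others.

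Among the chaperones, Hspa5 encodes BiP, the main Hsp70 of the endoplasmic reticulum lumen, which also holds the stress sensors inactive. The gene spans chr2:34772090-34776529. At 4 weeks it read 8.55, 8.73, 8.60 and 8.60 in LFD and 9.12, 8.41 and 9.06 in HFD. There LFD array 1 (8.55) and HFD array 1 (9.12) had epididymis transcripts. At 8 weeks the LFD arrays read 8.62, 8.71, 8.60 and 8.68 and the HFD arrays 8.87, 9.05, 8.92 and 8.98. At 12 weeks they read 8.86, 8.69, 8.59 and 8.83 in LFD and 9.0, 8.76, 8.94 and 9.05 in HFD. The diets thus separated at 8 weeks and overlapped at the other times, where HFD array 2 was lowest of its group. The differences were 0.24 ± 0.21, 0.30 ± 0.19 and 0.20 ± 0.19 in that order, none of them called (adjusted p = 0.768, 0.536 and 0.710). The average of 0.25 ± 0.11 (95% interval 0.01 to 0.48) was not called either, with an adjusted p of 0.204. The variable chow pair, 9.78 and 8.37, enters the shared estimate of spread. With the LFD and HFD groups alone the average difference was the same and its adjusted p was 0.0229.

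Sdf2l1 encodes a lumenal partner of BiP in the folding and sorting of nascent proteins (chr16:17130138-17132383). At 4 weeks it read 6.77, 7.22, 7.08 and 6.85 in LFD and 7.78, 7.10 and 8.03 in HFD. At 8 weeks it read 7.31, 7.78, 7.30 and 7.23 in LFD and 8.19, 8.09, 8.20 and 7.79 in HFD. At 12 weeks it read 7.86, 7.66, 7.20 and 7.56 in LFD and 8.23, 7.76, 8.17 and 7.93 in HFD. Only at 8 weeks did the groups not overlap, by a margin of 7.79 over 7.78. Of 11 HFD arrays, 7 exceeded the highest LFD array of any time, as did 9 for Hspa5 and 11 for Edem1. Of all genes, 90 of 22180 (0.406%) had all 11 HFD arrays above every LFD array. How many reached 7 or 9 was not counted, so these 2 numbers are not read as particular to the members. The difference was 0.66 ± 0.37 at 4 weeks, 0.66 ± 0.34 at 8 weeks and 0.45 ± 0.34 at 12 weeks, with adjusted p of 0.614, 0.404 and 0.585. Averaged over time it was 0.59 ± 0.20 (1.51-fold, 95% interval 0.17 to 1.01), and its adjusted p of 0.0656 missed the threshold. Chow array 1 read 9.69 and chow array 2 read 7.01, and both enter the shared estimate of spread. Without the 3 arrays with epididymis transcripts the average difference was 0.54 and was called (adjusted p = 0.00329), as was the difference at 8 weeks (adjusted p = 0.0389).

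Hsp90b1 encodes GRP94, the Hsp90 of the endoplasmic reticulum (chr10:86690841-86705444). It read 11.56 to 11.76 in LFD and 11.52 to 12.04 in HFD at 4 weeks, 11.40 to 11.57 and 11.51 to 11.90 at 8 weeks, and 11.57 to 11.78 and 11.44 to 11.82 at 12 weeks. The diets overlapped at each time. The differences were 0.10 ± 0.17, 0.23 ± 0.16 and -0.05 ± 0.16, and the average was 0.09 ± 0.09 (adjusted p = 0.650). Dnajb9 encodes ERdj4, a J-domain co-chaperone that passes misfolded proteins to BiP (chr12:44205897-44210068). It read 9.21 to 10.18 in LFD and 9.05 to 9.53 in HFD at 4 weeks, 8.63 to 9.14 and 9.01 to 9.23 at 8 weeks, and 8.96 to 9.41 and 8.85 to 9.89 at 12 weeks. Its ranges also overlapped at each time, and its average difference was 0.01 ± 0.13 (95% interval -0.27 to 0.29, adjusted p = 0.982). For both Hsp90b1 and Dnajb9 the highest array of each diet at 4 weeks was array 1, which had epididymis transcripts.

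Edem1 encodes a mannosidase-like lectin that takes terminally misfolded glycoproteins out of the folding cycle and hands them to ERAD (chr6:108824045-108859356). At 4 weeks it read 9.27, 9.80, 9.58 and 9.45 in LFD and 10.18, 10.07 and 10.28 in HFD. At 8 weeks it read 9.69, 9.66, 9.51 and 9.52 in LFD and 9.98, 10.09, 9.97 and 10.08 in HFD. At 12 weeks it read 9.67, 9.53, 9.72 and 9.79 in LFD and 9.97, 10.19, 10.21 and 10.16 in HFD. No group overlapped its control, and the lowest of the 11 HFD arrays (9.97) lay above the highest of the 12 LFD arrays (9.80) across all times. Such a complete order with HFD above was found for 90 of 22180 genes (0.406%), and with HFD below for 44 (0.198%). Edem1 rose by 0.65 ± 0.12 at 4 weeks (adjusted p = 0.0178), 0.44 ± 0.11 at 8 weeks (adjusted p = 0.0405) and 0.46 ± 0.11 at 12 weeks (adjusted p = 0.0187). The average rise was 0.51 ± 0.07, or 1.43-fold (95% interval of the log2 value 0.38 to 0.65, adjusted p = 2.47e-05). It did not differ detectably between times, the interaction having an adjusted p of 0.924.

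The single-time calls for Edem1 were close to the threshold, whereas the average was not. At 4 weeks the call was lost without HFD array 1, HFD array 3, LFD array 1 or LFD array 4, and at 12 weeks without HFD array 3, LFD array 1 or LFD array 2. At 8 weeks it was lost without any 1 of its own 8 arrays and without HFD array 1 or LFD array 3 at 4 weeks or LFD array 3 at 12 weeks. Over all such omissions the difference stayed between 0.57 and 0.74 at 4 weeks, 0.41 and 0.47 at 8 weeks, and 0.41 and 0.51 at 12 weeks, with adjusted p of at most 0.223, 0.109 and 0.0738. The average was called in all 25 omissions (0.49 to 0.54, adjusted p at most 0.000131). A second Edem1 cluster of lower mean level gave 0.29 ± 0.14, 0.26 ± 0.13 and 0.48 ± 0.13 at the 3 times and 0.35 ± 0.08 on average. Adjusted over all clusters, its p was 0.549, 0.45 and 0.0459, and 0.00591 on average.

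With the split by hepatocyte transcripts as a block the Edem1 difference was 0.65, 0.43 and 0.46 at the 3 times and 0.51 on average, all called. Among the arrays with high hepatocyte transcripts alone it was 0.37 ± 0.13 at 8 weeks (adjusted p = 0.193) and 0.44 ± 0.12 at 12 weeks (adjusted p = 0.0316). Without those arrays, 1 HFD array (9.98) stood against 2 LFD arrays (9.51 and 9.52) at 8 weeks, and 1 HFD array (10.21) against 1 LFD array (9.72) at 12 weeks. The average difference without them, all 4-week arrays included, was 0.54 ± 0.14 and was not called (adjusted p = 0.110), where lone arrays are assumed to vary like the other groups. Without the arrays with epididymis transcripts it was 0.57 ± 0.12 at 4 weeks, with an adjusted p of 0.0504. Macrophage transcripts moved with the diet too. The mean of 15 of 15 macrophage genes was 8.06 to 8.57 in LFD and 8.45 to 8.79 in HFD at 4 weeks, 8.14 to 8.21 and 8.72 to 9.81 at 8 weeks, and 7.89 to 8.38 and 9.09 to 9.80 at 12 weeks. Of these genes 0, 7 and 11 were called higher at the 3 times and 13 on average. With the macrophage mean as a covariate the average Edem1 difference was 0.42 ± 0.12 and was not called (adjusted p = 0.380); for this averaged difference 0 of 22180 genes were called in that fit. Fibroblast and progenitor transcripts (9 of 10 listed genes measured) also moved with the diet, with means of 9.73 to 10.00 in LFD and 9.99 to 10.13 in HFD at 4 weeks, 9.71 to 9.82 and 9.80 to 10.22 at 8 weeks, and 9.38 to 9.68 and 9.87 to 10.00 at 12 weeks. Of these 9 genes 4 were called higher at 12 weeks and 4 on average, 0 at 4 and at 8 weeks, and their part in the Edem1 difference was not tested.

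**Figure D2:**
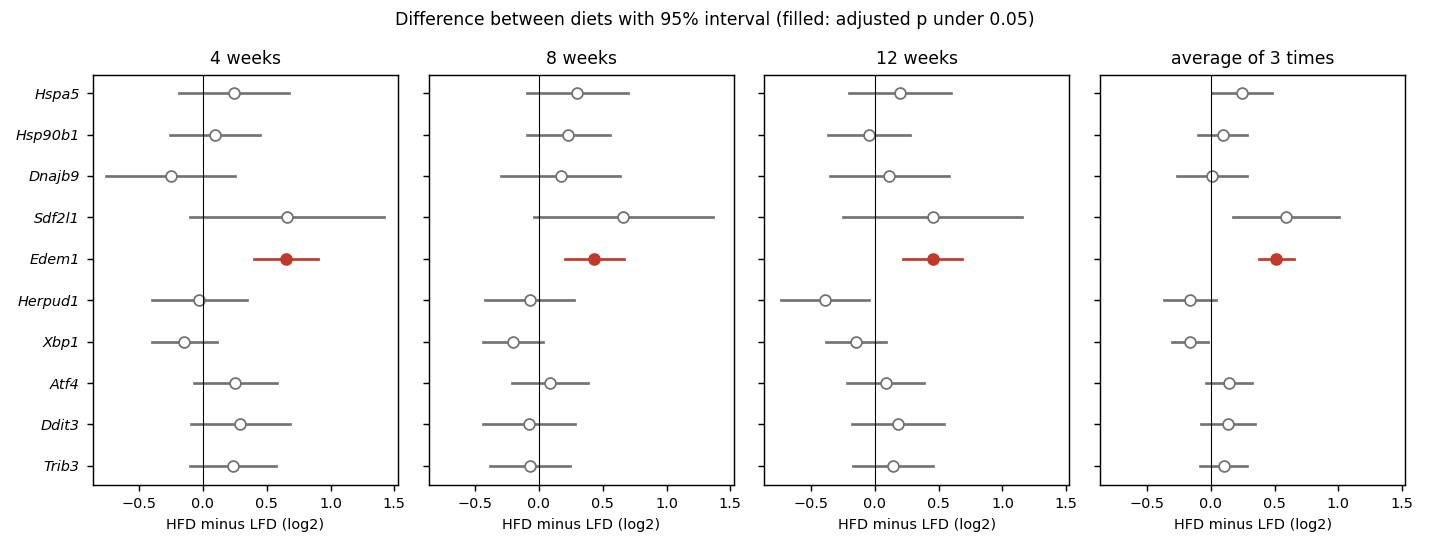
HFD minus LFD on the log2 scale (x axis) for the 10 genes (y axis) at 4, 8 and 12 weeks and averaged over them, with 95% intervals as bars; filled points have an adjusted p under 0.05. Edem1 is the 1 filled gene in each panel (0.65, 0.44, 0.46 and 0.51), and the Sdf2l1 points lie at 0.66, 0.66, 0.45 and 0.59 with wider intervals.

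Herpud1 encodes a membrane protein that assembles the ERAD ubiquitin ligase complex (chr8:94386429-94395371). At 4 weeks it read 9.06, 9.53, 9.40 and 9.63 in LFD and 9.40, 9.28 and 9.45 in HFD. At 8 weeks it read 10.14, 10.10, 9.80 and 9.60 in LFD and 9.39, 10.09, 9.86 and 10.01 in HFD. At 12 weeks it read 10.35, 10.39, 9.84 and 10.22 in LFD and 9.67, 9.95, 9.80 and 9.81 in HFD. The diets overlapped at each time, and at 12 weeks 3 LFD arrays lay above all HFD arrays. The difference was -0.03 ± 0.18 at 4 weeks, -0.07 ± 0.17 at 8 weeks and -0.39 ± 0.17 at 12 weeks, where the adjusted p was 0.230. Among arrays with high hepatocyte transcripts at 12 weeks it was -0.51 and was called (adjusted p = 0.0167). In those arrays the hepatocyte mean was itself lower in HFD (8.87 to 9.39) than in LFD (9.80 to 10.62). In the 1 LFD and 1 HFD array without them the difference was -0.04.

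Herpud1 was also the member that changed with time. Averaged over the diets it was higher at 12 than at 4 weeks by 0.61 ± 0.12 (1.53-fold, adjusted p = 0.00983), a rise called for 2.43% of all genes. At 8 against 4 weeks the difference was 0.48 ± 0.12 with an adjusted p of 0.0523, and at 12 against 8 weeks it was 0.13 ± 0.12. Hepatocyte transcripts followed the same order of times: no array at 4 weeks was among the 11 with high levels. Herpud1 had a median of 10.09 (9.67 to 10.39) in those 11 and 9.53 (9.06 to 10.04) in the other 14. With the hepatocyte split as a block the difference between 12 and 4 weeks was 0.33 ± 0.13 and was not called (adjusted p = 0.244). Without those arrays it was 0.43 (adjusted p = 0.679).

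**Figure D3:**
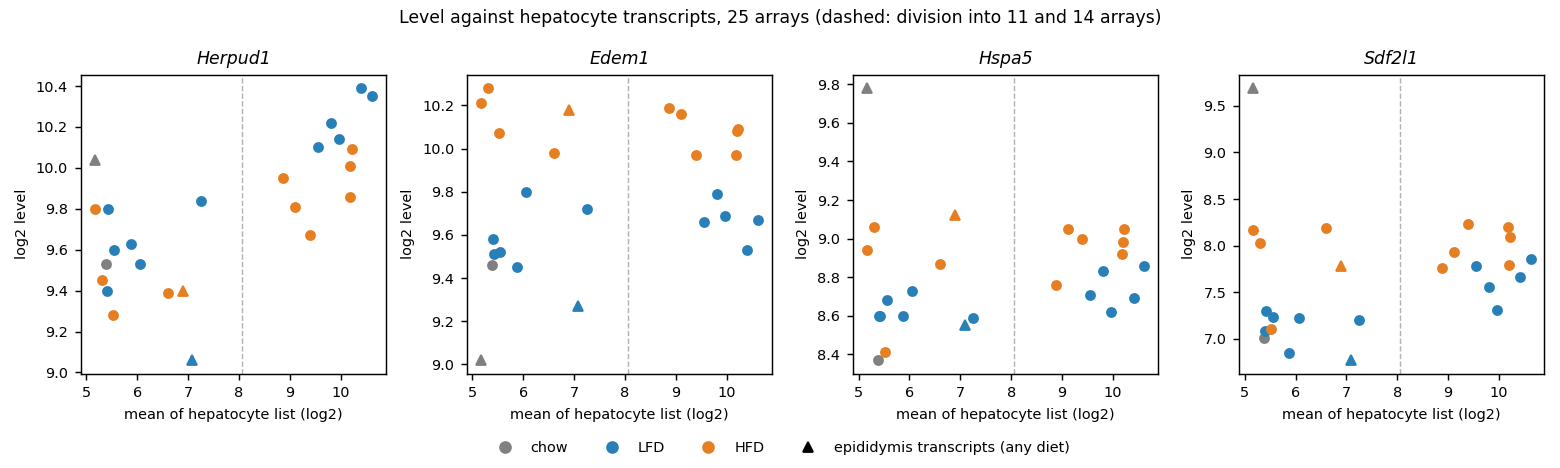
Log2 level (y axis) of Herpud1, Edem1, Hspa5 and Sdf2l1 against the mean log2 level of the hepatocyte genes (x axis) in the 25 arrays, coloured by diet, with triangles for arrays with epididymis transcripts and a dashed line between the groups of 11 and 14 arrays. Herpud1 lies higher to the right of the line (median 10.09 against 9.53), whereas Edem1 lies higher in HFD on both sides.

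None of the 3 genes of transcription factors was called between the diets. Xbp1, the substrate of IRE1 (chr11:5520641-5525993), read 10.00 to 10.37 in LFD and 9.99 to 10.11 in HFD at 4 weeks, 10.17 to 10.69 and 10.11 to 10.27 at 8 weeks, and 10.10 to 10.37 and 10.00 to 10.18 at 12 weeks. The HFD median lay below the LFD median each time (10.03 against 10.20, 10.13 against 10.30, and 10.13 against 10.28). The differences were -0.15 ± 0.12, -0.20 ± 0.11 and -0.15 ± 0.11, and the average of -0.17 ± 0.07 (95% interval -0.31 to -0.03) was not called (adjusted p = 0.139). With arrays weighted by their quality the average was called (adjusted p = 0.0381).

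Atf4 encodes the factor whose translation PERK favours (chr15:80255184-80257545). It read 7.93 to 8.12 in LFD and 7.98 to 8.60 in HFD at 4 weeks, 8.05 to 8.61 and 8.24 to 8.68 at 8 weeks, and 8.17 to 8.58 and 8.21 to 8.72 at 12 weeks. The diets overlapped each time, with differences of 0.25 ± 0.16, 0.09 ± 0.15 and 0.09 ± 0.15 and an average of 0.14 ± 0.09 (adjusted p = 0.374). Ddit3, which encodes the pro-apoptotic factor CHOP downstream of ATF4 (chr10:127290793-127296291), read 6.85 to 7.10 in LFD and 7.09 to 7.37 in HFD at 4 weeks, 6.93 to 7.28 and 6.79 to 7.24 at 8 weeks, and 6.70 to 7.29 and 7.05 to 7.51 at 12 weeks. At 4 weeks the groups overlapped by a single pair of values, 7.10 and 7.09, and the difference was 0.29 ± 0.19 (adjusted p = 0.673). At 8 and 12 weeks it was -0.08 ± 0.17 and 0.18 ± 0.17, and the average was 0.13 ± 0.10 (95% interval -0.08 to 0.35, adjusted p = 0.525).

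Trib3 encodes a pseudokinase that is induced by ATF4 and CHOP and restrains them (chr2:152337425-152344060). It read 5.99 to 6.38 in LFD and 6.03 to 6.77 in HFD at 4 weeks, 6.17 to 6.73 and 6.23 to 6.49 at 8 weeks, and 6.27 to 6.48 and 6.34 to 6.86 at 12 weeks. The ranges overlapped each time, and the differences were 0.23 ± 0.16, -0.07 ± 0.15 and 0.14 ± 0.15 with an average of 0.10 ± 0.09 (adjusted p = 0.596). All coordinates of the members are those of RefSeq on GRCm38.p6.

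None of the 10 genes was called for an interaction of diet and time, and neither was any other gene. With an unadjusted p under 0.05 in limma's test there were 0 members and 1199 genes (5.41%). Apart from Herpud1, no member was called between times. At 8 against 4 weeks 0 members were called (1.28% of all genes were), and 3 had an unadjusted p under 0.05, as had 16.9% of genes: Herpud1, Atf4 with 0.27 ± 0.11 and Dnajb9 with -0.38 ± 0.17. Atf4 was higher by the same 0.27 ± 0.11 at 12 against 4 weeks, where 4.13% of genes were called and Atf4 was not (adjusted p = 0.155). At 12 against 8 weeks 0 members and 0.338% of genes were called, and no member had an unadjusted p under 0.05 (11.5% of genes had).

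The 2 chow arrays stood far apart for the chaperone genes. Chow array 1, which had the epididymis transcripts, was the highest of all 25 for Hspa5 (9.78), Hsp90b1 (12.62) and Sdf2l1 (9.69). It was second for Dnajb9 (10.14), after LFD array 1 at 4 weeks (10.18), another array with epididymis transcripts. The same chow array was the lowest of all 25 for Edem1 (9.02) and Ddit3 (6.60). Chow array 2 read 8.37, 11.60, 7.01 and 9.23 for these chaperones in the same order, and 9.46 and 7.63 for Edem1 and Ddit3. Its Ddit3 level was the highest of all 25. Chow array 2 also had the highest mean of 6 measured pancreatic acinar genes, 6.25, against at most 5.055 in the other arrays. The part of these transcripts in its values was not tested. Herpud1 read 10.04 and 9.53 in chow, Xbp1 10.05 and 10.43, Atf4 8.37 and 8.45, and Trib3 6.10 and 6.38. No difference from chow was tested.

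Few pairs of members varied together from mouse to mouse. After the group means and the hepatocyte split were removed, 21 arrays without epididymis transcripts, in groups of at least 2, gave 45 pairs of members with a median Pearson correlation of 0.04, and 20 pairs were below 0. In all, 2 pairs exceeded 0.5: Dnajb9 with Hsp90b1 (0.81), and Sdf2l1 with Hspa5 (0.72), all 4 of them chaperone genes. These are descriptions over residuals of the same arrays and were not tested. Among non-members, the genes most like Edem1 in these residuals were Slc25a25 (0.88) and Ptgfrn (0.84). Those most like Dnajb9 included Pdia3 (0.86), an oxidoreductase of the endoplasmic reticulum and the 1 gene of the pathway lists among the 20 nearest neighbours of the members, taken as 2 for each member.

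The wider pathway was followed through 6 lists of 104 genes, of which 99 were measured and 89 were not among the 10. At 4 weeks 0 of 89 were called and 13 had an unadjusted p under 0.05 (9.33% of all genes had). There 71 had a positive difference (49.7% of all genes had), with a median of 0.19. Positive differences numbered 55 at 8 weeks, 60 at 12 weeks and 68 on average, with medians of 0.07, 0.07 and 0.11. Of all genes, 48.2%, 48% and 46.8% had them. At 8 weeks 2 of 89 were called (2.25%, against 2.4% of all genes), at 12 weeks 8 (8.99%, against 4.46%) and on average 12 (13.5%, against 10.5%). None of the 7 genes of the sensors and their activation and none of 19 further chaperones and folding enzymes were called between the diets. On average over time 2 and 3 of them had an unadjusted p under 0.05, and their median differences were 0.05 and 0.17. At least 4488 of 22180 genes had such an unadjusted p, as Hspa5 held rank 4488 with 0.0412 in limma's test. The counts of 2 and 3 are thus not read as an excess. On average, 2 of 15 ERAD genes and 2 of 9 transcription factors were called. So were 5 of 20 genes listed for the PERK-ATF4 arm and 3 of 19 genes of translocation and export.

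**Figure D4:**
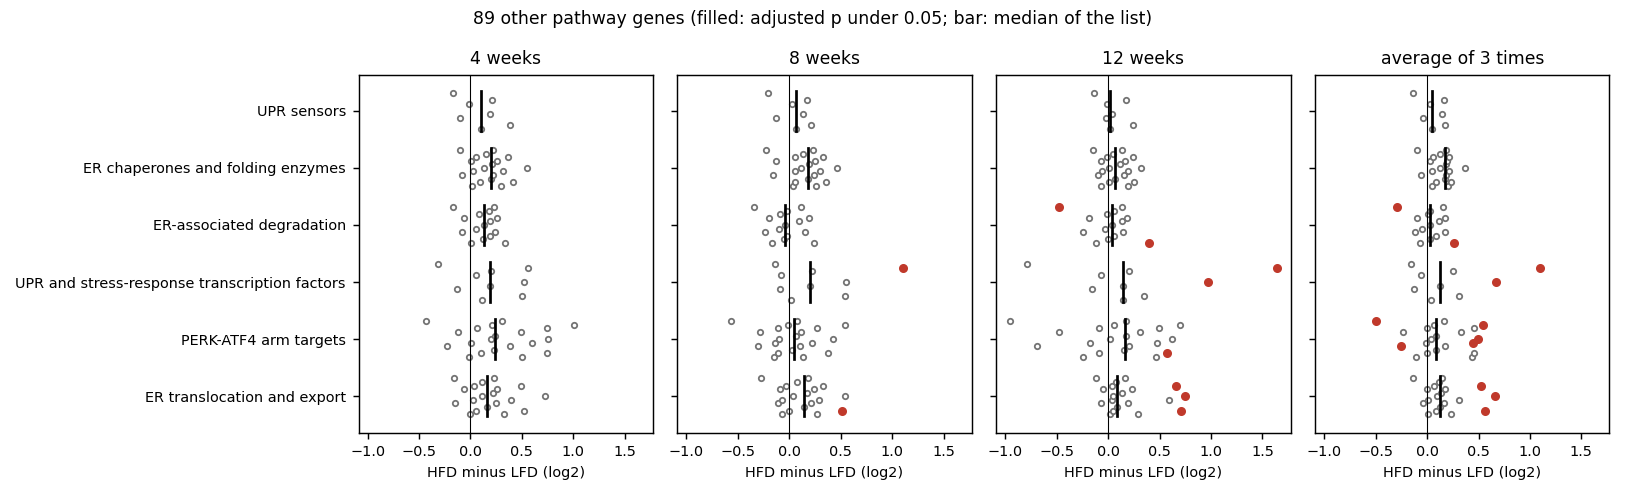
HFD minus LFD on the log2 scale (x axis) for the 89 other pathway genes (points) in 6 lists (y axis) at 4, 8 and 12 weeks and averaged; filled points have an adjusted p under 0.05 and the bar is the median of a list. Called genes number 0, 2, 8 and 12 from left to right, and none belong to the sensors or chaperones.

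Within ERAD, the list of Edem1 and Herpud1, the called genes moved in opposite directions. Ube2j1, an ubiquitin-conjugating enzyme of the endoplasmic reticulum membrane, rose by 0.26 ± 0.06 on average (adjusted p = 0.00412) and by 0.39 ± 0.10 at 12 weeks (adjusted p = 0.0183). Derl1, a component of the channel through which substrates leave, fell by 0.30 on average (SE 0.08, adjusted p = 0.0148). At 12 weeks Derl1 read 10.69, 10.78, 10.94 and 10.93 in LFD and 10.12, 10.50, 10.52 and 10.29 in HFD, without overlap, and fell by 0.48 (SE 0.13, adjusted p = 0.0373). The Derl1 call at 12 weeks was lost without HFD array 1, HFD array 4 or any 1 of the 4 LFD arrays (difference -0.53 to -0.40). That of Ube2j1 was lost without HFD array 3, LFD array 1 or LFD array 4 (0.32 to 0.37).

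Among the other transcription factors, Atf3, a stress-induced member of the ATF/CREB family, had the largest called difference. At 12 weeks it read 6.96, 7.35, 7.09 and 7.57 in LFD and 9.46, 8.28, 9.02 and 8.78 in HFD, a rise of 1.64 ± 0.27 (3.12-fold, adjusted p = 0.00138). It rose by 1.11 ± 0.27 at 8 weeks (adjusted p = 0.0337) and 1.10 ± 0.16 on average (adjusted p = 9.9e-05). The 8-week call was lost without HFD array 1 (9.18, the highest), HFD array 4 or LFD array 1, 2 or 3, with values from 0.76 to 1.15. With the macrophage mean as a covariate the average difference of Atf3 was 0.10. Creb3l1, which encodes OASIS, a membrane-bound factor related to ATF6, read 7.16, 6.88, 7.25 and 7.36 in LFD and 7.93, 8.21, 8.28 and 8.11 in HFD at 12 weeks. It rose by 0.97 ± 0.17 at 12 weeks (adjusted p = 0.00187) and 0.67 ± 0.10 on average (adjusted p = 0.000125).

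Called genes in the list of the PERK-ATF4 arm changed in both directions. On average Slc3a2, the heavy chain of amino acid transporters, rose by 0.54 ± 0.12 (adjusted p = 0.00327), Sesn2, a stress-induced inhibitor of mTORC1 signalling, by 0.49 ± 0.10 (adjusted p = 0.00196), and Vldlr, the very low density lipoprotein receptor, by 0.45 ± 0.09 (adjusted p = 0.0012). Asns, asparagine synthetase, fell by 0.50 (SE 0.15, adjusted p = 0.0301) and Ppp1r15b, the constitutive phosphatase subunit that reverses PERK signalling, fell by 0.25 (SE 0.06, adjusted p = 0.0124). The Asns call was lost without any 1 of 8 arrays: HFD array 1 or 3 or LFD array 3 or 4 at 4 weeks, HFD array 1 or LFD array 2 at 8 weeks, and HFD array 1 or LFD array 3 at 12 weeks (difference -0.48 to -0.43). At 12 weeks Vldlr was the 1 gene of this list called, with 0.57 ± 0.14 (adjusted p = 0.023), and that call was lost without HFD array 2, 3 or 4 or LFD array 1 or 2 (0.50 to 0.57).

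Genes in the list of translocation and export rose where they were called between the diets. Kdelr3, a receptor that returns escaped chaperones such as BiP, read 5.99, 6.38, 5.94 and 6.14 in LFD and 6.64, 6.90, 6.69 and 6.84 in HFD at 12 weeks. Kdelr3 rose by 0.56 ± 0.08 on average (adjusted p = 6.4e-05), 0.66 ± 0.13 at 12 weeks (adjusted p = 0.00486) and 0.51 ± 0.13 at 8 weeks (adjusted p = 0.0437). The 8-week call of Kdelr3 was lost in 13 of 25 omissions of 1 array, any of its own 8 arrays among them (0.44 to 0.56). Sec24d, a cargo adaptor of COPII vesicles, rose by 0.66 ± 0.10 on average (adjusted p = 0.00018) and 0.71 ± 0.17 at 12 weeks (adjusted p = 0.0189, lost without HFD array 2, HFD array 3 or LFD array 1, with 0.66 to 0.67). Ckap4, which shapes endoplasmic reticulum sheets, rose by 0.52 ± 0.08 on average and 0.75 ± 0.14 at 12 weeks (adjusted p = 0.00265). All diet calls named for these pathway genes were kept with the hepatocyte split as a block, and also without the arrays with epididymis transcripts.

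None of these diet calls was kept with the macrophage mean as a covariate, where 0 of 22180 genes were called at 8 weeks, at 12 weeks or on average. In that fit the average difference was 0.17 for Ube2j1, 0.24 for Ckap4, 0.37 for Sesn2, 0.38 for Vldlr, 0.42 for Kdelr3, 0.45 for Slc3a2, 0.50 for Creb3l1 and 0.59 for Sec24d. It was -0.27 for Ppp1r15b, -0.32 for Derl1 and -0.40 for Asns. Without the arrays with high hepatocyte transcripts, which leaves 14 arrays, the difference of Atf3 was 1.94 at 8 weeks and 1.47 on average. At 8 weeks it rests on HFD array 1 (9.18) against LFD arrays 3 and 4 (7.16 and 7.33). At 12 weeks 1 array was left in each diet, so no call of these genes is read from this fit. The average differences there ran from 0.26 for Ube2j1 to 0.75 for Sec24d among the other genes that rose, and were -0.26 for Ppp1r15b, -0.33 for Derl1 and -0.57 for Asns. The fibroblast and progenitor means, which did not overlap between the diets at 12 weeks, moved with these genes too, and their part in these differences was not tested.

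**Figure D5:**
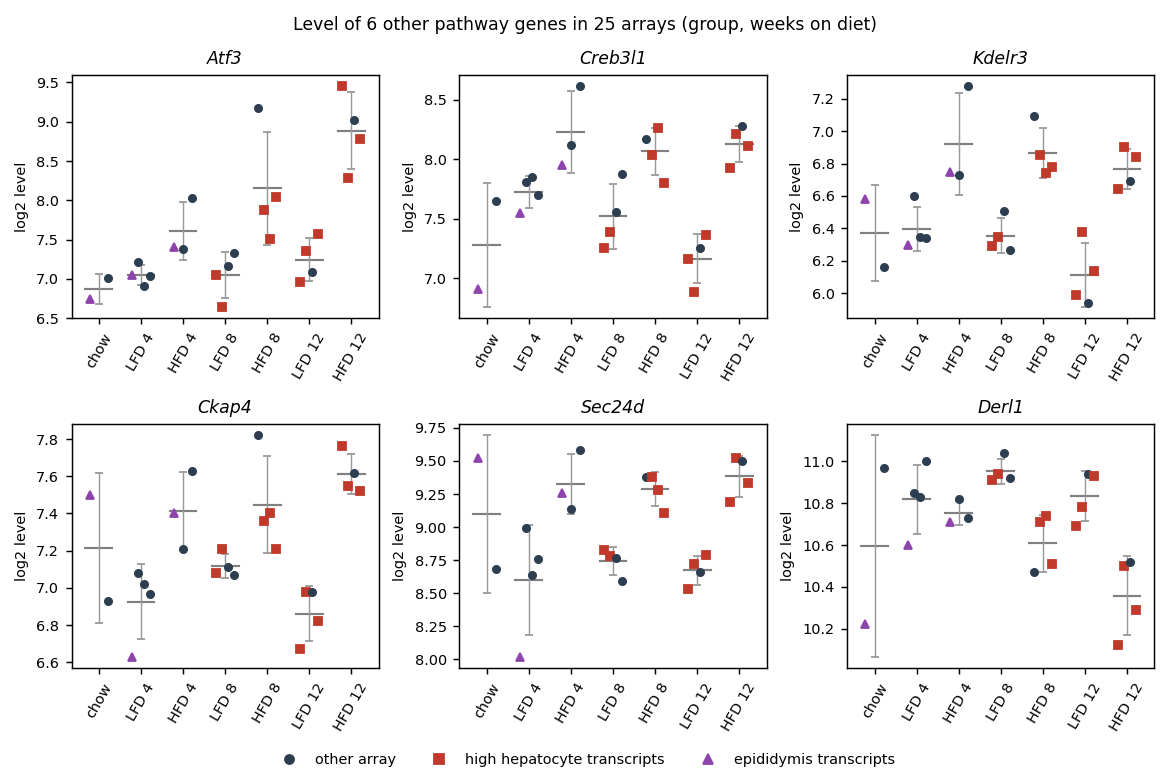
Log2 level (y axis) of Atf3, Creb3l1, Kdelr3, Ckap4, Sec24d and Derl1 in each array (points) by group and weeks on diet (x axis), with the group mean (short line) and SD (bars), and symbols for arrays with hepatocyte or epididymis transcripts. At 12 weeks the HFD arrays lie above the LFD arrays for the first 5 genes and below them for Derl1 (10.12 to 10.52 against 10.69 to 10.94).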

How the data were processed

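Transcript levels of 25 mice, 1 array each, were analysed. The deposited values are log2 array values of 34472 transcript clusters. Per the submitters' processing notes and the design text the authors used Transcriptome Analysis Console 4.0.2; how background was corrected and arrays were normalized is not given in these sources, which limits what a difference between levels means. Of the clusters, 23521 had 1 gene symbol, 1814 had several and 9137 had no entry in the platform annotation; the cluster with the highest mean stood for each of 22180 genes. Groups follow the labels.

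The 7 group means were fitted to all 25 arrays with limma 3.58.1 (R 4.3.3), with no filter on low levels. Contrasts took HFD minus LFD per time and over all times, their interaction, and times averaged over diets. P values were Benjamini-Hochberg adjusted over all genes and called under 0.05. The fit, tested on simulated data, has 18 residual degrees of freedom; 2 to 4 arrays a group limit its precision.

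The members and lists were chosen with earlier results of these data known. All members are named, and of the pathway lists the called genes, at most 5 a list. The hepatocyte split lies in the middle of the largest gap between the arrays' hepatocyte means. The 3 epididymis arrays have a mean above their array's median. Hepatocyte, epididymis and macrophage terms were added as alternatives, as were other groupings, scalings and filters.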

Additional observations from a re-analysis of the deposited data

Results flagged for a closer look

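Sdf2l1 in LFD array 2 at 8 weeks read 7.78, and the next highest of the 4 arrays of that group read 7.31. The gap was 0.855 of the range of the group, above Dixon's critical value for 4 arrays. That array has high hepatocyte transcripts (mean 9.55), as does LFD array 1 of the same time (9.97), in which Sdf2l1 read 7.31; their part in the value was not tested. It was the 1 group so marked among 50 groups of 4 arrays over the 10 genes, and chance marks about 1 in 20 groups.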

How the results depend on the processing

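The number of the 10 genes called depended on the setting. No called value changed sign. With the compared groups alone 0 members were called at 4 weeks, 2 at 8 weeks and 3 on average. Centred on array medians, 0 were called at 4, 8 and 12 weeks and 1 (Herpud1) at 8 against 4 weeks. Without genes of low mean 2 were called on average and 1 at 8 against 4 weeks, and with intensity trend and robust moderation 1 at 8 against 4 weeks. With the mean of a gene's clusters 0 were called at 4 and at 8 weeks. With array weights 4 were called on average (Hspa5, Sdf2l1, Edem1 and Xbp1) and 1 at 8 against 4 weeks. With the hepatocyte split as a block 0 were called at 12 against 4 weeks. With the means of both tissue lists (hepatocyte, epididymis) as covariates 2 were called on average and 0 at 12 against 4 weeks. Without the arrays with epididymis transcripts the numbers were 0 at 4 weeks, 2 at 8 weeks and 2 on average. Without the arrays with high hepatocyte transcripts, which leaves 14 arrays, 0 were called at 4, 8 and 12 weeks, on average and at 12 against 4 weeks; with these arrays alone 0 were called at 8 weeks and 2 at 12 weeks. A 1.5-fold limit beside the adjusted p gave 0 at 8 weeks, 12 weeks and on average. The limits of the design text, applied to limma's unadjusted p with 1.5-fold, gave 0 at 8 and 12 weeks and 1 on average, which was Sdf2l1.

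The following 2 settings were chosen after the data had been seen. The hepatocyte block without the arrays with epididymis transcripts gave 0 at 4 weeks, 2 at 8 weeks, 2 at 12 weeks, 3 on average and 0 at 12 against 4 weeks. The macrophage mean as a covariate gave 0 at 4, 8 and 12 weeks and on average and 1 at 8 against 4 weeks; in that fit 19 genes were called at 4 weeks and 0 at 8 weeks, at 12 weeks and on average. Leaving out arrays leaves fewer samples; apart from that, the cause was not tested. Leaving out 1 array at a time gave 0 to 1 called members at 4 weeks, 0 to 2 at 8 weeks, 0 to 1 at 12 weeks, 1 to 3 on average, 0 to 1 at 8 against 4 weeks, 1 to 2 at 12 against 4 weeks, and 0 for the interaction and 12 against 8 weeks. Same-numbered arrays of the 2 diets deviated with correlations from -0.610 to 0.599 over 11 pairs. The lowest was that of array 1 at 8 weeks (hepatocyte mean 6.60 in HFD and 9.97 in LFD). The highest was that of array 3 at 12 weeks (5.16 and 7.25), in both diets outside the arrays with high hepatocyte transcripts. As the arrays differ in transcripts of other tissues, these correlations cannot decide whether the numbers pair them. With the replicate number as a block the average Edem1 difference was 0.51, and the numbers of called members did not change.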

Other observations

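Other genes of the wider pathway differed between the times, averaged over both diets. The labels give ages of 16, 20 and 34 weeks for these times, so time on diet and age cannot be told apart. At 12 against 4 weeks Atf6, which encodes a sensor, rose by 0.30 ± 0.08 (adjusted p = 0.0423), and Mbtps1, the site-1 protease that cuts it, fell by 0.36 (SE 0.08, adjusted p = 0.0226). Atf3 rose by 0.74 ± 0.20 (adjusted p = 0.0427), Cebpb, a transcription factor of adipogenesis and inflammation, by 0.52 ± 0.14 (adjusted p = 0.0404), and Faf2, an ERAD adaptor on membranes, by 0.28 ± 0.07 (adjusted p = 0.031). Ssr2, a subunit of the translocon-associated complex, fell by 0.34 (SE 0.08, adjusted p = 0.0217), and also against 8 weeks (adjusted p = 0.0472). At 8 against 4 weeks Fkbp2, a prolyl isomerase of the endoplasmic reticulum, rose by 0.48 ± 0.11 (adjusted p = 0.034) and Faf2 by 0.29 ± 0.07 (adjusted p = 0.0474). That made 6 of 89 genes at 12 against 4 weeks (6.74%, against 4.13% of all genes) and 2 at 8 against 4 weeks (2.25%, against 1.28%).

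Of these time calls, that of Atf3 was kept with the hepatocyte split as a block (1.06 ± 0.24, adjusted p = 0.0344), and the others were not called there. In that fit Atf6 gave 0.30 (adjusted p = 0.216), Mbtps1 -0.29 (adjusted p = 0.219), Cebpb 0.46 (adjusted p = 0.256), Faf2 0.36 (adjusted p = 0.0667), Ssr2 -0.32 (adjusted p = 0.160) and -0.34 against 8 weeks (adjusted p = 0.0657) and, at 8 against 4 weeks, Fkbp2 0.43 (adjusted p = 0.184). Most were also lost without single arrays: in 13 of 25 omissions for Atf6, 12 for Atf3, 9 for Cebpb, 5 for Faf2, 8 for Fkbp2 at 8 against 4 weeks and 18 for Faf2 there, and in 1 each for Mbtps1 and Ssr2 at 12 against 4 weeks, that of HFD array 1 at 4 weeks. The call of Ssr2 at 12 against 8 weeks was lost in 20 of 25 (-0.36 to -0.32). Without the 3 arrays with epididymis transcripts, the calls lost were those of Atf3 (0.69, adjusted p = 0.0892), Cebpb (0.40, adjusted p = 0.124) and Faf2 (0.23, adjusted p = 0.0681) at 12 against 4 weeks and Faf2 (0.24, adjusted p = 0.1002) at 8 against 4 weeks. Without the arrays with high hepatocyte transcripts none of these time calls was kept.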
